A study of Mus musculus with 3186 samples.

Results

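The cells described here are the Mfsd2a-rich, capillary-type endothelial cells of the adult mouse brain. They were chosen by their own measured transcripts from the endothelial reporter line of the series. A cell was a member if it had at least 50 CPM of Mfsd2a (CPM being read counts scaled to the same total in each cell), under 50 CPM of Slc38a5, under 50 CPM of Apln, and no more than 1 of the arterial-type genes Bmx, Gkn3, Sema3g, Vegfc and Efnb2 at 20 CPM or more. The rule was met by 443 of the 1445 cells of that line, which is 30.7% (exact binomial 95% interval 28.3 to 33.1%), and these are 443 of 3186 cells in the whole series. The endothelial cells carried the genotype Cldn5(BAC)eGFP, in which a claudin 5 BAC transgene drives green fluorescent protein. The mice were C57BL/6 adults of 12 to 15 weeks, with no treatment named. Cells were sorted by fluorescence into the wells of 4 plates, EC3 to EC6, and each was sequenced by Smart-seq2, a full-length cDNA method without molecular tags. The other cells of the series came from Pdgfrb(BAC)eGFP/NG2dsRed and Pdgfra-H2BGFP mice of the same strain and ages.

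The labels name no animals, so the line is 1 sample. No test, standard error or p-value was computed between cells. Levels are pooled CPM, with exact Poisson intervals where given. These intervals and the binomial intervals of shares cover counting error only, and plates can lie outside them. The range over the 4 plates is printed beside them. The labels do not say whether a plate is an animal, so the range can hold both kinds of difference.

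Mfsd2a encodes a transporter of the endothelial membrane that carries lysophosphatidylcholine with omega-3 fatty acids into the brain and that holds down vesicle traffic across the blood-brain barrier. Slc16a1 encodes the monocarboxylate transporter of lactate and ketone bodies, and it is often named with Mfsd2a as a capillary gene. Brain endothelium changes by degrees from arterioles through capillaries to venules, so genes of one end fade gradually into the next.

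The promoters of Mfsd2a, of the other named capillary gene Slc16a1, and of Ivns1abp, the gene whose level followed Mfsd2a most closely in these cells, are shown because the report turns on these 3 genes. In mm10, Mfsd2a is a protein-coding gene on the minus strand at chr4:122946850-122961188, Slc16a1 lies on the plus strand at chr3:104638668-104658462, and Ivns1abp on the plus strand at chr1:151344477-151364422. Each sequence is the RefSeq window of 300 bases around the start site in GRCm38.p6, read 5′ to 3′ on the gene's strand. Windows are chr4:122961139-122961438 for Mfsd2a, chr3:104638414-104638713 for Slc16a1 and chr1:151344236-151344535 for the first of 2 windows of Ivns1abp. Capitals mark matches on either strand to GGGCGG (GC box), CTTTGNT (LEF/TCF core) or ACGTG (hypoxia response core).
Mfsd2a: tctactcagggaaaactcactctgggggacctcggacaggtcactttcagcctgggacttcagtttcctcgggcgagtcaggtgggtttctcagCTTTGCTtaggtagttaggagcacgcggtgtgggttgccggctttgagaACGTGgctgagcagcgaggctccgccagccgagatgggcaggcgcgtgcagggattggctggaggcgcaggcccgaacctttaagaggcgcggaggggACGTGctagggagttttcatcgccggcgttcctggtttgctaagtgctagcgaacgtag
Slc16a1: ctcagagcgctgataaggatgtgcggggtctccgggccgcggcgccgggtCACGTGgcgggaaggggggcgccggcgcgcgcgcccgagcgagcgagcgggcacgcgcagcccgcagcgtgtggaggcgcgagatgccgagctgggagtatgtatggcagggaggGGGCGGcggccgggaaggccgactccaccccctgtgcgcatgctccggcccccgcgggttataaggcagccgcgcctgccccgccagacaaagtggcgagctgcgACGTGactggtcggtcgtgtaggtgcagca
Ivns1abp: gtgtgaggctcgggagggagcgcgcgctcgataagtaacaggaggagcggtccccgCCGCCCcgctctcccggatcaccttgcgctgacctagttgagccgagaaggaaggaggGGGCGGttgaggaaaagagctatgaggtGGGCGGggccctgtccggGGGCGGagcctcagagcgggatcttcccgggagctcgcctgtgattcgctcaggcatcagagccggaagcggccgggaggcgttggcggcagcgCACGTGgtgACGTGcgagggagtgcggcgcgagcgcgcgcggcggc
The Mfsd2a window held CTTTGNT and ACGTG and no GGGCGG, whereas the other windows held GGGCGG and ACGTG and no CTTTGNT. Where ACGTG lies in the palindrome CACGTG it counts on both strands. Among all 32851 windows of the table, 35.7% held GGGCGG, 18.6% CTTTGNT and 19.6% ACGTG. The sterol regulatory element TCACNCCAC (1.24% of windows) and the ETS motif CCGGAAGT (3.89%) were in none of the 3. These matches describe letters and not sites of binding.

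Libraries were of similar depth. Members had between 106703 and 593808 reads per cell with a median of 347469, and the remaining cells of the line had a median of 345906. The median member had reads from 2543 genes, against 2681.5 in the other cells, and after thinning every cell to 102985 reads the medians were 2269 and 2405. No pair of cells in the line had identical counts. Members were endothelial by their markers: the 8 endothelial markers summed to 35302 CPM (plates 32912 to 38271), against 39367 CPM in the other cells. Cldn5, whose transgene marked the sorted cells, gave 24563 CPM of the sum in members and was read in every cell of the line. The other markers were each read in at least 94.8% of members, except Erg at 39.5%. Pericyte markers summed to 60.1 CPM in members and 49.2 CPM in the other cells, against 55238 CPM in the Pdgfrb line. They reached 200 CPM in 47 of the 443 members (10.6%) and in 8.38% of the other cells. Erythroid markers summed to 289 CPM in members, from 0.728 to 723 CPM over plates, and reached 200 CPM in 5 of the 443 cells. The astrocyte set summed to 369 CPM in members and 246 CPM in the others. Of this, Gja1, a connexin gene, gave 353 and 204 CPM, whereas Aqp4 and Gfap were at 1.51 and 0.07 CPM in members. Microglia and macrophage markers summed to 13.9 CPM in members and 76.0 CPM in the others, and the 6 sets left, for smooth muscle, fibroblasts, oligodendrocytes, neurons, blood cells and choroid plexus, to between 1.32 and 35.2 CPM in members. No doublet caller was run, and the part of these cells in the results was not tested beyond leaving them out.

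Members made up 103 of 361 cells on plate EC3, 104 of 359 on EC4, 107 of 361 on EC5 and 129 of 364 on EC6. The share was 28.5 to 29.6% on the first 3 and 35.4% on EC6. The 1002 other cells were split by the first condition they failed, taken in the order Apln, Slc38a5, arterial-type genes and Mfsd2a. The Apln class held 37 cells (2.56% of the line), the Slc38a5 class 491 (34.0%), the arterial-gene class 276 with 2 or more of the arterial-type genes (19.1%) and the low-Mfsd2a class 198 (13.7%). Without this order 517 cells failed on Slc38a5 and 285 on the arterial-type genes. These classes are ranges of single genes on a continuum, not cell types. Mfsd2a itself was at 50 CPM or more in 904 cells. Slc38a5 alone kept 302 of them out, the arterial-type genes alone 129 and Apln alone 4.

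Mfsd2a chose the members, so its level is a description. Pooled Mfsd2a was 1947 CPM in members (interval 1940 to 1954), with 2163 on EC3, 2130 on EC4, 1928 on EC5 and 1624 on EC6. Single members spanned 64.9 to 8567 CPM with a median of 1522. The other cells pooled to 750 CPM, but they were split: the low-Mfsd2a class had 3.27 CPM, and the Slc38a5 and Apln classes had 939 and 990 CPM. The 50 CPM threshold fell in a sparse stretch. Among the cells that met the remaining conditions, 107 had no Mfsd2a read and 91 had some but under 50 CPM. Between 50 and 100 CPM lay 5 cells, between 100 and 200 CPM lay 11 and between 200 and 500 CPM lay 41, and the other members were higher. The 5 members nearest to the threshold had 64.9, 68.0, 87.1, 93.0 and 97.9 CPM, and the 5 cells nearest below it had 48.2, 34.5, 32.8, 31.0 and 27.3 CPM.

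Slc38a5 and Apln were low in members by construction, while the rule let 1 arterial-type gene stand at any level. Slc38a5, a glutamine transporter gene, pooled to 2.12 CPM in members and 1416 CPM in its own class, though 156 members had at least 1 read of it. Of the members, 314 had none of the arterial-type genes at 20 CPM and 129 had 1. That gene was Efnb2 in 50 cells, Gkn3 in 38, Sema3g in 23, Bmx in 13 and Vegfc in 5. Pooled Gkn3, a gene of arterial endothelium, was at 151 CPM in members, above the 8.04 CPM of the Slc38a5 class and the 89.8 CPM of the low-Mfsd2a class and below the 3004 CPM of the arterial-gene class. Efnb2, the ephrin B2 gene, was at 30.5 CPM in members, with 14.4, 11.5 and 144 CPM in the same classes.

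**Figure D1:**
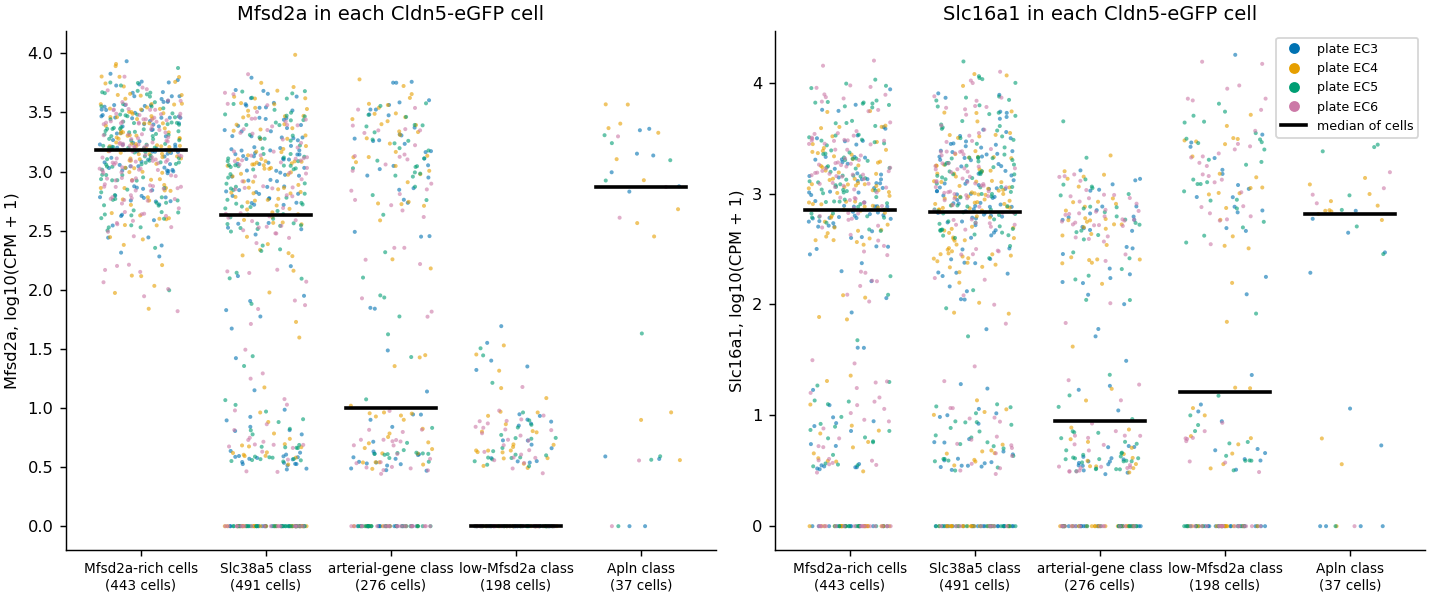
Each point is 1 Cldn5-eGFP cell, coloured by plate, with log10(CPM + 1) of Mfsd2a (left) and of Slc16a1 (right) on the vertical axes and the 5 classes along the horizontal axis; black bars are medians over cells. Mfsd2a in members starts at 64.9 CPM by the rule, while Slc16a1 spreads over the same range in members and in the Slc38a5 class, with medians of 715 and 674 CPM.

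Slc16a1, which the rule did not use, set the members apart from the arterial-gene class and not from the Slc38a5 class. It pooled to 1388 CPM in members (989 on EC3, 1001 on EC4, 1805 on EC5 and 1691 on EC6) and to 1035 CPM in the other cells, where the plates gave 786, 814, 1272 and 1297 CPM. The log2 ratio was 0.42, with 0.30 to 0.50 on the 4 plates, and so each plate's ratio was above 0 although the levels on the plates overlapped. By class, Slc16a1 was at 1414 CPM in the Slc38a5 class, 1273 CPM in the low-Mfsd2a class, 702 CPM in the Apln class and 313 CPM in the arterial-gene class. The pooled level of the low-Mfsd2a class came from fewer of its cells: its median cell was at 15.3 CPM, against 715 CPM in members and 674 CPM in the Slc38a5 class. A read of Slc16a1 was found in 85.3% of members (interval 81.7 to 88.5%) and in 79.9% of the other cells, with 86.6% in the Slc38a5 class and 68.7% in the low-Mfsd2a class. In the Pdgfrb line, at a median depth of 340344 reads, the same share was 9.16%. With every cell thinned to 102985 reads, the shares in members and other cells were 79.7% and 68.3%, with 77.4% and 58.6% in these 2 classes. Because this marker did not separate members from the Slc38a5 class, the cells are called Mfsd2a-rich here.

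Against all other cells of the line, few genes were higher in the Mfsd2a-rich cells and more were lower. A gene was called at a ratio of 2-fold or more on log2(CPM + 1) values with at least 5 CPM on the higher side, leaving out the 8 genes of the rule. Of 10074 genes so compared, 100 were at least 2-fold higher in members (0.993%) and 402 at least 2-fold lower (3.99%). The counts shift with the treatment of weakly read genes: with at least 20 CPM on the higher side they were 22 and 120. Leaving out any 1 of the plates EC3 to EC6 gave 151 to 169 genes higher. Without the cells that held pericyte or smooth muscle markers the counts were 143 and 436, and without those with erythroid markers 108 and 405. Separate plates, with all 4 member values outside the range of the 4 other values, were found for 186 genes higher (1.85%) and 396 lower (3.93%), and separate plates together with the 2-fold call for 27 genes higher (0.268%) and 189 lower (1.88%). The median log2 ratio of all compared genes was -0.03.

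Named genes had 50 CPM or more and a read in 25% of cells on the higher side, and kept a 1.5-fold ratio of 1 direction across the plates. On the higher side 4 genes passed. Ivns1abp, which encodes a kelch-family protein, was at 1382, 1331, 1443 and 1908 CPM in members on plates EC3 to EC6 and at 559, 664, 604 and 802 CPM in the others. All 4 member values lay above all 4 others, and the pooled levels were 1533 and 654 CPM (log2 ratio 1.23, plates 1.00 to 1.30). It was read in 84.7% of members and 63.9% of other cells. Cxcl12, the chemokine ligand of Cxcr4, was at 2332, 2763, 3572 and 2818 CPM in members and 1499, 1408, 1307 and 1523 CPM in the others. These plates did not overlap either, and the pooled levels of 2869 and 1434 CPM were just under 2-fold apart (plate log2 ratios 0.64 to 1.45). Lrrn3, a leucine-rich repeat membrane protein gene, had 426 against 194 CPM (log2 ratio 1.13). Lrp8, which encodes a receptor for apolipoprotein E and reelin, had 150 against 81.2 CPM (0.88).

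On the lower side 13 genes passed, of which 11 are described. Vwf, the von Willebrand factor of clotting, was at 175, 63.3, 61.7 and 92.1 CPM in members on plates EC3 to EC6 and at 642, 540, 611 and 485 CPM in the others. The plates were far apart, and the pooled levels were 98.6 and 572 CPM (log2 ratio -2.52, plates -3.29 to -1.87). Cd9, a tetraspanin gene, had 42.3 against 131 CPM (-1.61) and Cdk19, a kinase gene of the Mediator complex, 63.8 against 181 CPM (-1.49). Edn3, which encodes the peptide endothelin 3, had 71.0 against 167 CPM (-1.22). Tgm2, a transglutaminase gene, had 178 against 392 CPM (-1.13). Cyb561 (-1.36), Eps8l2 (-1.16), Rasd1 (-1.15) and Itga3 (-1.06) were also at least 2-fold lower. Some of these genes differed by class: Cdk19, Rasd1 and Eps8l2 were highest in the arterial-gene class, at 449, 394 and 301 CPM. They were at 153, 125 and 65.4 CPM in the low-Mfsd2a class and at 40.7, 51.7 and 61.8 CPM in the Slc38a5 class. In the Apln class they were at 39.6, 39.1 and 68.6 CPM. Cdk19 and Rasd1 were thus below the 63.8 and 74.2 CPM of members in the Slc38a5 and Apln classes. Edn3 was at 303, 213 and 115 CPM in the arterial-gene, Apln and Slc38a5 classes. In the low-Mfsd2a class it was at 71.6 CPM, near the 71.0 CPM of members. Vwf, Cd9, Cyb561 and Tgm2 were lower in members than in each of the 4 classes, from 344 CPM up for Vwf, 86.8 for Cd9, 93.0 for Cyb561 and 301 for Tgm2. With up to 2 arterial-type genes allowed, Edn3 (-0.91), Eps8l2 (-0.89) and Rasd1 (-0.78) were under 2-fold, and with none allowed Tgm2 (-0.85) and Itga3 (-0.81). Alpl, the tissue-nonspecific alkaline phosphatase gene, at 216 against 432 CPM, and Ctsc, a lysosomal protease gene, at 99.2 against 194 CPM (-0.96), were just under 2-fold. Alpl was at 1263 CPM in the arterial-gene class and 251 CPM in the low-Mfsd2a class. In the Slc38a5 and Apln classes it was below members, at 25.8 and 22.7 CPM. Without plate EC5, Rasd1 and Itga3 were under 2-fold too, at -0.91 and -0.95.

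**Figure D2:**
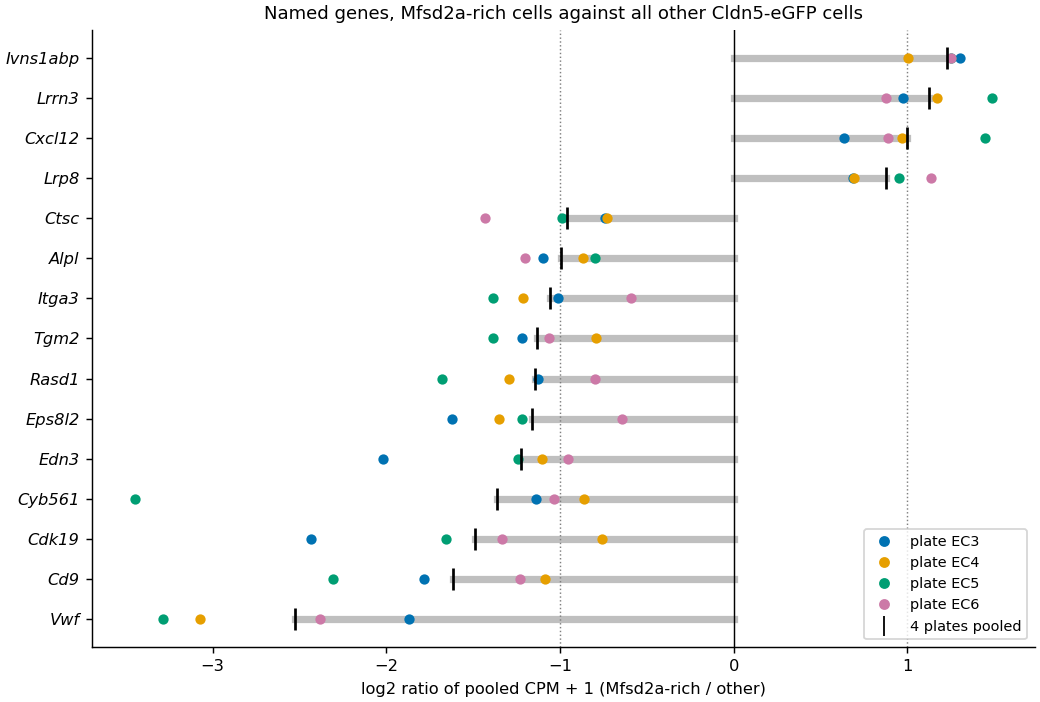
Log2 ratios of pooled CPM + 1, Mfsd2a-rich over other Cldn5-eGFP cells, for 15 named genes; coloured points are the 4 plates, black ticks the 4 plates pooled, grey bars run from 0 to the pooled value and dotted lines mark 2-fold. Ivns1abp, Lrrn3, Cxcl12 and Lrp8 lie to the right on every plate, and Vwf lies farthest to the left at -2.52.

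Of 15 capillary-associated genes outside the rule, 1 was at least 2-fold higher in members (Ivns1abp) and none lower, beside 0.993% higher and 3.99% lower among all genes. The median log2 ratio was 0.37 against -0.03 for all genes, with 13 ratios above 0 and 2 below. It was 0.91 against the arterial-gene class and 0.35 against the low-Mfsd2a class, but 0.0018 against the Slc38a5 class, where 8 ratios were above 0 and 7 below. Rgcc, a regulator of the cell cycle, had 306 against 174 CPM (0.81), and Tfrc, the transferrin receptor gene for iron uptake, 1138 against 878 CPM (0.37). Car4, an extracellular carbonic anhydrase gene, was at 1335 and 1324 CPM (0.01), and its sign turned under 4 of the 21 alternatives. In the Slc38a5 class Tfrc and Car4 were above members, at 1280 and 2033 CPM, as in the Apln class, at 1201 and 2446 CPM. They were at 784 and 1284 CPM in the low-Mfsd2a class and at 226 and 27.5 CPM in the arterial-gene class.

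Carriers of the barrier had no call among 3 lists, beside 0.993% higher and 3.99% lower among all genes. None of 14 amino acid and taurine carrier genes was at least 2-fold higher or lower (median 0.20), and the same held for 12 organic anion carriers and efflux pumps (0.18). It held also for 15 carriers of sugars, monocarboxylates, hormones and vitamins (0.14). Against the Slc38a5 class the medians of these lists were 0.09, 0.04 and -0.05. Slc7a5 and Slc3a2, the light and heavy chain genes of the large neutral amino acid transporter, had 1887 against 1274 CPM (0.57) and 2178 against 1656 CPM (0.40). Slc1a1, an excitatory amino acid transporter gene, had 484 against 306 CPM (0.66). Slc6a6, the taurine transporter gene, went the other way with 2897 against 4017 CPM (-0.47), and its 4 member plates lay below the 4 others. Slc22a8, an organic anion transporter gene, had 1745 against 1200 CPM (0.54), and Slco1c1, for a thyroid hormone carrier, 3070 against 2368 CPM (0.37), both with separate plates. Some classes were near members or above them: Slco1c1 was at 3103 CPM in the arterial-gene class, and Slc22a8 at 1593 and 1697 CPM in the Slc38a5 and Apln classes. Slc2a1, the glucose transporter gene of the barrier, had 7799 against 7066 CPM (0.14), and the efflux pump gene Abcb1a 1123 against 1075 CPM (0.06).

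Among 14 ion and metal transporters 1 was at least 2-fold lower, beside 3.99% of all genes. It was Atp1b1, a sodium pump subunit gene, with 2.07 against 19.9 CPM (-2.77). Slc39a10, a zinc importer gene, had 1200 against 851 CPM (0.50). Among 12 receptors of receptor-mediated uptake (median 0.22), Insr, the insulin receptor gene, had 1161 against 885 CPM (0.39). Lrp1, a lipoprotein receptor gene, was the single receptor called, lower at 2.27 against 5.79 CPM (-1.06), close to the 5 CPM minimum. Single calls in lists of this size are near the share among all genes.

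Of 16 genes of lipid uptake and transfer, 1 was at least 2-fold lower, Lrp1 again, and none higher (median -0.05), counts near the 3.99% and 0.993% of all genes. Of 17 genes of sterol and fatty acid synthesis none was called (median 0.05), nor was any of 11 genes of fatty acid oxidation (0.14), of 13 glycolysis genes (-0.16) or of 18 genes of oxidative phosphorylation (0.01). Cd36 and Fabp4, genes of fatty acid uptake and binding in other vessels, were at 0.53 and 0 CPM in members.

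Of 9 compared genes of caveolae, the membrane pits of vesicle traffic, none was called. All 9 ratios were below 0, with a median of -0.40 against -0.03 for all genes. Against the Apln class 5 of the 9 were above 0 (median 0.07). Cav1, the main caveolar coat gene, had 377 against 497 CPM (-0.40, plates -0.67 to -0.07), and Ehd2, a gene of the caveolar neck, 159 against 242 CPM (-0.60, plates -0.90 to -0.25). For both genes the 4 member plates lay below the 4 others. Plvap, which encodes the diaphragm protein of fenestrae, was at 3.38 CPM in members and 2.02 CPM in the others. It was under the 5 CPM minimum and so was not among the 9. No junction gene of 15 was called (median -0.04): Cldn5, the main tight junction gene, had 24563 against 29373 CPM (-0.26), and Ocln, the occludin gene, 741 against 627 CPM (0.24).

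Of 18 arterial genes outside the rule 9 were at least 2-fold lower in members and none higher (median -1.23), and of 12 venous genes 8 were lower and none higher (median -2.25), beside 3.99% lower among all genes. Ratios above 0 were found for 3 of the arterial genes and 1 of the venous genes. Mgp, the matrix Gla protein gene of arteries, was at 0.15 against 118 CPM (-6.70), and Fbln5, an elastic fibre gene, at 0.31 against 67.6 CPM (-5.71). Vcam1, an adhesion receptor for leukocytes, was at 6.88 against 343 CPM (-5.45), and fewer than 25% of the other cells had a read of it. Vcam1 was at 470 CPM in the arterial-gene class, 383 in the Slc38a5, 157 in the Apln and 57.3 in the low-Mfsd2a class. Nr2f2, the venous fate transcription factor gene, was at 5.86 against 25.3 CPM (-1.94). The rule removed cells by arterial-type genes and by Slc38a5, so these lists are not independent of it. Of 10 leukocyte adhesion and inflammation genes 4 were at least 2-fold lower and 2 had ratios above 0 (median -0.59), and Icam1 was among the 4 at 39.4 against 157 CPM (-1.97). Of 14 vasoactive and coagulation genes 3 were lower, Vwf, Ptgis (-2.23), the prostacyclin synthase gene, and Ace (-1.87), the angiotensin-converting enzyme gene. Icam1, Vcam1 and Vwf are also in the venous list, so their calls count in both lists. Plat, the tissue plasminogen activator gene, had 481 against 331 CPM (0.54).

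Angpt2, the angiopoietin 2 gene, which is known for loosening vessels during sprouting, was the single call among 11 angiogenic and tip cell genes (median 0.26). Among all genes 0.993% were called higher. Angpt2 was at 142 CPM in members and 49.4 CPM in the other cells (log2 ratio 1.5, plates 0.88 to 2.46), and its plates did not overlap. Fewer than 25% of members had a read of it, so it was not among the named genes. By class it was at 322 CPM in the Apln class, 73.2 CPM in the low-Mfsd2a class, 40.4 CPM in the Slc38a5 class and 14.5 CPM in the arterial-gene class. Of 25 growth factor and receptor genes 1 was called lower, beside 3.99% of all genes. It was Bmp4, at 0.08 against 5.91 CPM (-2.68). Flt1 and Kdr, genes of VEGF receptors, had 4051 against 3168 CPM (0.35) and 735 against 583 CPM (0.33).

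No Notch pathway gene of 13, no gene of 21 in the Wnt and beta-catenin pathway and no gene of 15 of the basement membrane and integrins was called, with medians of 0.02, -0.01 and -0.01. Dll4, a Notch ligand gene, had 297 against 219 CPM (0.44), and Lef1, a Wnt-responsive transcription factor gene, 825 against 678 CPM (0.28). Of 24 endothelial transcription factor genes, Nr2f2, which is also in the venous list, was the single call. Among all genes 0.993% were called higher and 3.99% lower. MHC class I and interferon genes had no call among 22, with 18 ratios below 0. Their median was -0.21 against -0.03 for all genes, and H2-K1 had 1413 against 1937 CPM (-0.46). Immediate early, flow and stress genes had 19 of 21 ratios below 0 (median -0.27 against -0.03 for all genes). Fosb (-1.69) and Egr1 (-1.01) of this list were at least 2-fold lower. Fos, a component of AP-1, had 333 against 617 CPM (-0.89). It was at 1193 CPM in the arterial-gene class and 628 CPM in the low-Mfsd2a class. In the Slc38a5 and Apln classes it was at 304 and 120 CPM, below members. Over the plates Egr1 ranged from -3.73 to 0.14, and without plate EC5 its pooled ratio was -0.59.

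**Figure D3:**
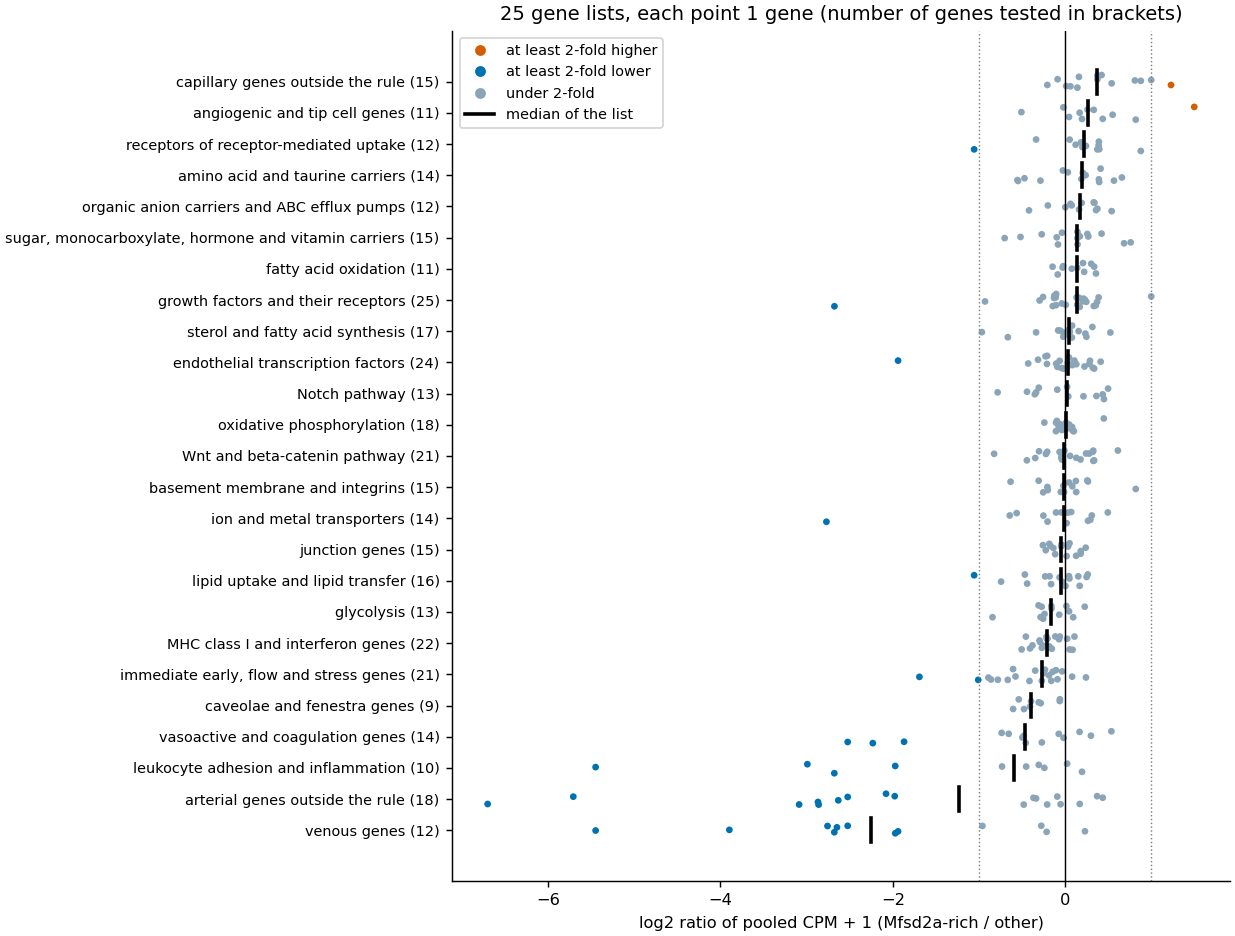
Log2 ratios of pooled CPM + 1, Mfsd2a-rich over other Cldn5-eGFP cells, for the genes of 25 lists; each point is 1 gene, orange if at least 2-fold higher, blue if at least 2-fold lower, with black bars at the list medians and dotted lines at 2-fold. The capillary list is at the top with a median of 0.37, and the arterial and venous lists are at the bottom with -1.23 and -2.25.

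The classes differed from the Mfsd2a-rich cells in different genes. Against the Slc38a5 class, 247 of 10002 genes were at least 2-fold higher in members (2.47%) and 373 lower (3.73%). Alpl was at 216 against 25.8 CPM (log2 ratio 3.02), Hey1, a Notch target gene, at 129 against 23.9 CPM (2.38), Unc5b, a netrin receptor gene, at 61.2 against 15.5 CPM (1.92) and Cxcl12 at 2869 against 1118 CPM (1.36). Rad54b, a DNA repair gene (1.67), and Tgfb2, a growth factor gene (1.41), completed the named genes of that side. Lower in members were Vcam1 with 6.88 against 383 CPM (-5.61), Adh1, an alcohol dehydrogenase gene (-3.09), Vwf (-2.96), Flrt2 (-2.63) and Icam1 (-2.54). Of the 13 arterial genes compared here 6 were at least 2-fold higher in members, none was lower and 12 had ratios above 0 (median 0.95), and of 12 venous genes 9 were lower and none higher.

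Against the arterial-gene class, 449 of 10104 genes were at least 2-fold higher in members (4.44%) and 668 lower (6.61%). Car4 was at 1335 against 27.5 CPM (5.55), with 76.5% and 40.2% of cells showing a read. Tfrc was at 1138 against 226 CPM (2.33), and Ctla2a (2.82), Ttyh2 (2.75), Pglyrp1, a peptidoglycan recognition gene (2.55), and Hmcn1, a hemicentin gene (2.28), were higher as well. Of 15 capillary genes 7 were at least 2-fold higher, and of 14 amino acid and taurine carriers 6 were higher and 2 lower. Slc16a1 was at 1388 against 313 CPM. Lower in members were Mgp with 0.15 against 384 CPM (-8.39), Manr (-5.43), Gper1, an estrogen-responsive receptor gene (-5.38), Fhl1 (-5.34), Stmn2, a stathmin gene (-4.44), and Col18a1, the collagen that holds endostatin (-4.12).

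The low-Mfsd2a class met every other condition, and its pooled levels of Car4 and Slc16a1, 1284 and 1273 CPM, were near those of members, although a smaller share of its cells held Slc16a1 reads. Its cells had fewer reads, with a median of 297570, and fewer genes after thinning, 1971 against 2269. Of 10201 genes, 542 were at least 2-fold higher in members (5.31%) and 722 lower (7.08%). Gja1 was at 353 against 124 CPM (1.5) and Ivns1abp at 1533 against 552 CPM (1.47). Arl15, a small GTPase gene (1.29), Pdzd11 (1.23), Ncln (1.10) and Fgd6 (1.05) were also higher, though Ncln was at 0.53 with members from 200 CPM of Mfsd2a. Vwf was lower in members at 98.6 against 357 CPM (-1.85), as were Cdk19 (-1.25) and Rpa1, a replication protein gene (-1.01), while Sft2d2 (-0.97), Fos (-0.92) and Rabep1 (-0.89) were under 2-fold. With every cell thinned to 102985 reads, Pdzd11 was under 2-fold (0.93). Without plate EC6, Ncln, Fgd6 and Rpa1 were under 2-fold, at 0.89, 0.90 and -0.89. Without plate EC5, Fgd6 was at 0.95, and without plate EC3, Rpa1 at -0.97.

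The Apln class held 37 cells, so its pooled levels rest on few. Of 10317 genes, 1593 were at least 2-fold higher in members (15.4%) and 1291 lower (12.5%). Hey1 was at 129 against 1.89 CPM (5.49) and Alpl at 216 against 22.7 CPM (3.20). Mecom.2 (2.59), Cebpz (2.53), Rasa1 (2.51) and Zbtb44 (2.47) were the other named genes on this side. Lower in members were Vcam1 (-4.33), Vwf (-2.87), Ccnd1, a cyclin gene of cell cycle entry (-2.66), P2rx7, an ATP receptor gene (-2.44), Adm, the adrenomedullin gene (-2.36), and Csf1, the macrophage growth factor gene (-2.29).

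**Figure D4:**
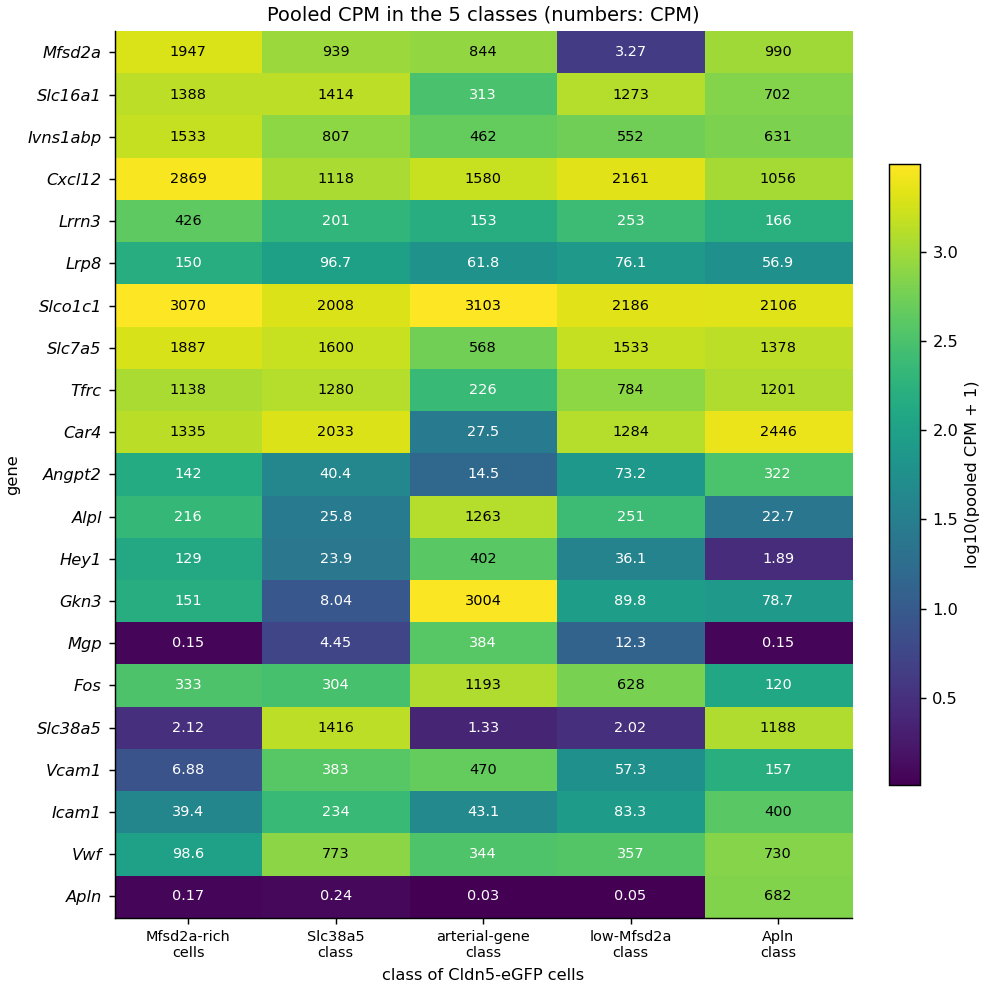
Pooled CPM of 21 genes (rows) in the 5 classes of Cldn5-eGFP cells (columns), with the colour on a log10(CPM + 1) scale and the CPM printed in each box; rows are to be read across, since genes of different length cannot be compared. Ivns1abp, Cxcl12, Lrrn3 and Lrp8 are highest in the Mfsd2a-rich column, while Slc16a1, Tfrc and Car4 are low in the arterial-gene column alone among the larger classes.

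The levels of Ivns1abp were, in order, 1533 CPM in members, 807 in the Slc38a5 class, 631 in the Apln class, 552 in the low-Mfsd2a class and 462 in the arterial-gene class. Likeness to Mfsd2a was described by Spearman's rho over all 1445 cells for the 4136 genes with at least 50 CPM, values that share each cell's depth and many zeros. Ivns1abp came first at 0.41 (plates 0.36 to 0.47), followed by Slc22a8 (0.35), Cxcl12 (0.33), Slc7a5 (0.32) and Slco1a4 (0.32). Slc6a6 was at the far end with -0.28, next to Vwf with -0.27. Slc16a1 ranked 42 with 0.21. Such correlations are weak, and within members they were weaker still: 0.27 for Ivns1abp and 0.02 for Slc16a1.

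Within the 443 members, Mfsd2a varied by over an order of magnitude and Slc16a1 did not follow it. The cells were ranked by Mfsd2a on each plate into tertiles of 149, 148 and 146 cells, which pooled to 604, 1595 and 3609 CPM of Mfsd2a. Slc16a1 was at 1439, 1332 and 1393 CPM in the same tertiles. Median reads were 343208, 345440 and 361268. Of 10088 genes, 786 were at least 2-fold higher in the highest than in the lowest tertile (7.79%) and 894 lower (8.86%), larger shares than for all members against other cells, from smaller pools. Ivns1abp went from 1026 through 1600 to 1966 CPM (0.94 between the outer tertiles, plates 0.77 to 1.06). Ralgapb (1.96), Lrrk1 (1.21), Mtx2, a mitochondrial import gene (1.20), Ube2n, a ubiquitin-conjugating enzyme gene (1.02), and Hsf1, the heat shock transcription factor gene (0.88), were higher in the highest tertile on every plate.

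Cyr61, a matrix protein gene of the immediate early response, was at 415, 117 and 140 CPM over the tertiles (-1.56), and without plate EC6 the ratio was -0.90. Tnpo3, a nuclear import gene (-1.45), Akirin2 (-1.42), Stim2, a calcium sensor gene (-1.17), Actr1b (-1.07) and Clic5 (-1.01) were lower in the highest tertile. Without plate EC5, Actr1b was just under 2-fold and Clic5 at -0.99, and without plate EC6 Clic5 was at -0.83. Several of these ratios did not hold at 2-fold under other rules for members: Ube2n was at 0.09 with no arterial-type gene allowed and 0.64 with up to 2, Lrrk1 at 0.67 with members from 20 CPM of Mfsd2a, and Stim2 at -0.73 with up to 2 arterial-type genes. With cells thinned to 102985 reads, Lrrk1 was at 0.64, Stim2 at -0.84, Actr1b at -0.94 and Clic5 at -0.86. Ube2n was also at 0.98 without plate EC4 and 0.97 without plate EC5. Of the other genes, Vwf was at 146, 78.4 and 71.4 CPM, Car4 at 1554, 1510 and 949 CPM, Cldn5 at 26747, 24829 and 22158 CPM and Hey1 at 95.1, 93.6 and 196 CPM. These 4 were picked after their values were seen.

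The 129 members with 1 arterial-type gene had higher levels of several arterial genes that the rule did not use. The split was made on the arterial-type genes of the rule, so these levels are not independent of it. Compared with the 314 members with none, 674 of 10053 genes were at least 2-fold higher (6.7%) and 712 lower (7.08%). Alpl was at 399 against 136 CPM (1.55) and Hey1 at 232 against 83.8 CPM (1.46). Egfl8 (2.18), Slc26a10 (1.80), Alox12, a lipoxygenase gene (1.63), and Cthrc1, a collagen triple helix gene (1.59), were higher too. Car4 was at 418 against 1737 CPM (-2.05, plates -2.34 to -1.77), and Slc16a1 at 782 against 1654 CPM (-1.08, plates -1.43 to -0.59). Without plate EC6 the ratio of Slc16a1 was -0.92. Add3 (-1.29), Paxbp1 (-1.20), Cebpd, a transcription factor gene (-1.19), and Pglyrp1 (-1.09, and -0.97 without plate EC3) were lower. With cells thinned, Slc16a1 (-0.99), Cebpd (-0.99) and Pglyrp1 (-0.94) were just under 2-fold. Of 13 arterial genes 7 were at least 2-fold higher and none lower, and of 15 capillary genes 3 were lower and none higher.

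**Figure D5:**
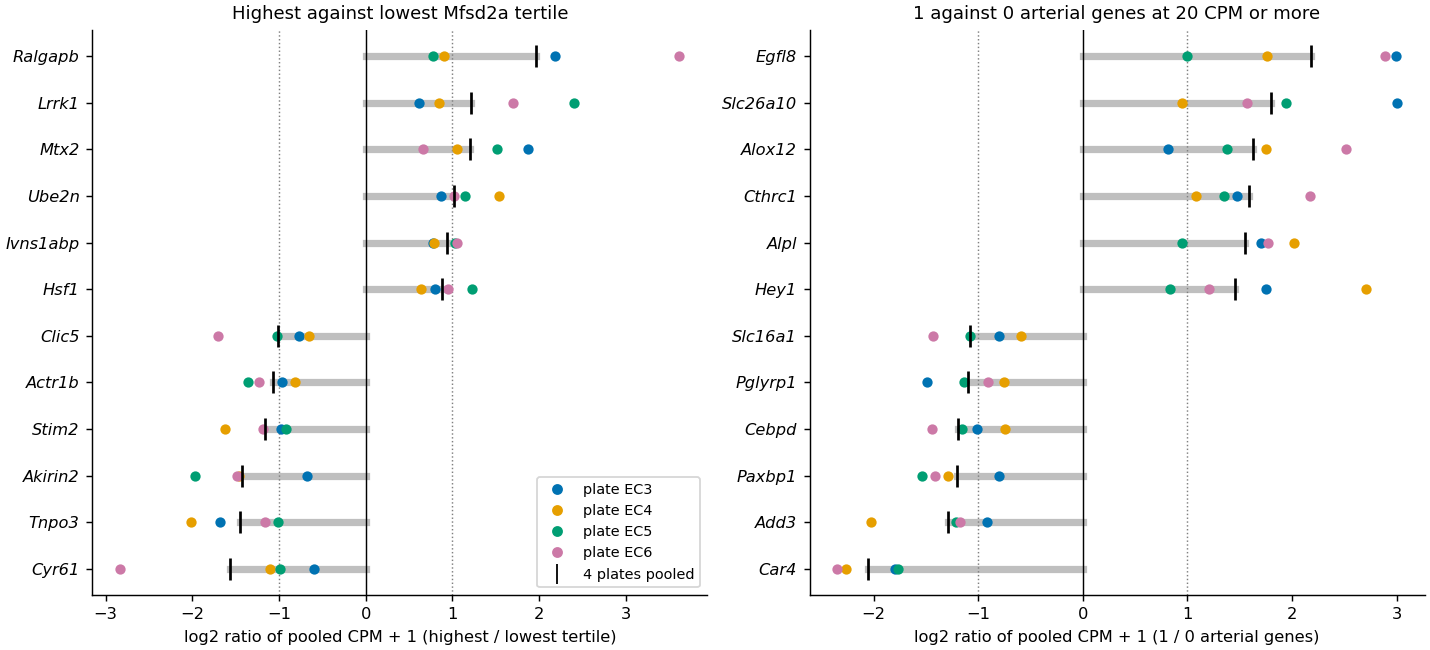
Log2 ratios of pooled CPM + 1 within the Mfsd2a-rich cells, between the highest and the lowest tertile of Mfsd2a (left) and between cells with 1 and with 0 arterial-type genes (right); coloured points are the 4 plates, black ticks the 4 plates pooled and dotted lines 2-fold. Ivns1abp is at 0.94 between the tertiles, and Car4 and Slc16a1 are at -2.05 and -1.08 between cells with 1 and with 0 arterial-type genes.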

How the data were processed

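Single brain cells of Cldn5(BAC)eGFP mice were analysed from the deposited raw read counts, which the authors made per gene and cell. Reads were aligned with STAR 2.4.2a to mm10, per the submitters' processing notes, with gene counter, annotation and filters not given in the sources used here. In addition, the authors' normalized table holds whole numbers scaled to a near-constant total per cell, treated as a score and used as an alternative. The deposited counts were scaled by each cell's total to CPM, summed over cells, and compared as log2((CPM + 1)/(CPM + 1)). With 1 sample no test was possible. Intervals are exact at 95%, and 3 counts are the floor for a count of 0. The members, the 25 gene lists (403 genes found) and the rules were chosen with earlier results of these data known. Named genes are the 12 largest ratios per direction (6 in the further comparisons) with at least 50 CPM, reads in 25% of cells and a 1.5-fold ratio on each plate, and up to 3 genes at each end of a list; further list genes were picked for their known role. A few genes that met these rules are not reported here. Code ran in Python 3.11.15 with numpy 2.4.6, pandas 2.3.3 and scipy 1.17.1. Promoter windows came from RefSeq and positions from GENCODE M21. Of the 6 genes Mfsd2a, Slc16a1 and the named higher ones, 5 had a window. Depth in the line was 102985 to 593808 reads per cell. Alternatives changed the thresholds, scaling, pseudocount, minimum, fold, depth, mixed cells and plates.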

Additional observations from a re-analysis of the deposited data

Results flagged for a closer look

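Over the 4 plates, 24 values of the comparison with all other cells were checked for a plate far from the rest, a check that chance flags in about 1 of 20 groups, and 3 stood apart. The share of members was 35.4% on plate EC6 and 28.5 to 29.6% on the other plates. The log2 ratio of Cyb561 was -3.45 on plate EC5 and -1.14 to -0.86 on the others. The log2 ratio of Cyr61 was -0.84 on plate EC5 and -0.18 to -0.08 on the others.

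Cells outside the comparisons also met the rule. In the Pdgfrb-eGFP/NG2-dsRed line, in which pericyte markers were high, 37 of 1484 cells did so, and their pericyte markers summed to 16034 CPM against 60.1 CPM in the Cldn5-eGFP members. Of the cells in that line with at least 5000 CPM of Cldn5, a limit set after the data were seen, 7 met the rule and 14 did not. Pericyte markers summed to 5408 and 4682 CPM in these 2 sets, so neither was free of them. Slc16a1 was at 550 and 1637 CPM in these 2 sets and Vcam1 at 0 and 500 CPM.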

How the results depend on the processing

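In all, 191 values were recomputed under 21 alternatives. The labels give no replicates and plates are not tied to animals, so no paired analysis was possible because the labels name no animals. Of 2088 log2 ratios, 2073 kept the sign of the reported value, and the 15 that did not concerned Car4 and Slc16a1 at ratios near 0. Most of these genes were named for a 1.5-fold ratio of 1 direction on each plate, so their signs had little room to turn. Of 1050 list counts, 104 changed by over 1.5 times or to or from 0. Of 525 list medians, 45 moved by more than their standard deviation over the plates. The number of members was 314 with none of the arterial-type genes allowed, 500 with up to 2, 427 at 200 CPM of Mfsd2a and 384 without the 176 cells with pericyte or smooth muscle markers. Counts of called genes, as higher and lower in members, moved by over 1.5 times with the limits on low values. With a pseudocount of 5 CPM they were 24 and 185 against all others, 91 and 164 against the Slc38a5 class, 234 and 405 against the arterial-gene class, 264 and 394 against the low-Mfsd2a class, 478 and 580 between the tertiles, and 392 and 398 between 1 and 0 arterial-type genes. With at least 20 CPM they were 22 and 120, 80 and 113, 203 and 322, 211 and 237, 334 and 395, and 277 and 286 in the same order, and 814 and 745 against the Apln class. With no minimum they were 296 and 819, 562 and 730, 851 and 1111, 1082 and 1227, 1255 and 1575, and 1111 and 1387, and 2560 were higher than in the Apln class. At 1.5-fold they were 436 and 918, 732 and 924, 1156 and 1391, 1343 and 1507, 1575 and 1753, and 1438 and 1540, with 2557 and 2276 against the Apln class. These alternatives admit or drop weakly read genes or smaller ratios by construction. Leaving out 1 plate gave 151 to 169 genes higher against all others and 711 to 842 against the low-Mfsd2a class, the cause of which was not tested. With none of the arterial-type genes allowed, Ivns1abp was at 0.89, Lrrn3 at 0.99 and Slc16a1 at 0.72, and Slc16a1 was at 0.25 with up to 2. Under that stricter rule no comparison of 1 with 0 arterial-type genes exists. Depth limits genes of a few CPM, where a handful of wells can set a pooled level.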
